A study of Mus musculus with 10 samples.

Results

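The endothelial genes described here are 37 genes whose transcripts mark the cells that line blood and lymphatic vessels. They were taken from the count table by gene symbol, and 37 of 37 were found among its 39017 genes. RNA was sequenced from lung tumours of mice on a C57BL6/J background that carried K-ras LSL-G12D/WT and p53 Fl/Fl (KP, the Control group) or the same alleles with Glut1 Fl/Fl (KPG1, the Glut1KO group). Floxed alleles were recombined by an adenovirus, Ad5CC10-Cre, instilled into the trachea, and tumours were dissected 20 weeks and 1 day later, dissociated and depleted of CD45-positive leukocytes with beads. The CC10 promoter is active in secretory cells of the airway, so the vessel cells measured here were host cells at which the deletion was not aimed. The label of the controls gives the Glut1 allele as heterozygous floxed, whereas the design text speaks of wild type. The paper describes its controls as either wild type or heterozygous.

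There were 5 libraries in each group and 10 in all. All 5 Control libraries came from males, whereas Glut1KO libraries 1 to 3 came from females and 4 and 5 from males. Library totals ran from 35.3 to 49.8 M counts, and the endothelial genes together took between 412.4 (Control 2) and 1524 (Glut1KO 2) counts-per-million. Nothing in the labels says that each library came from its own animal, and a number in the library names was shared by Control 1, 2 and 5, by Control 3 and 4 and by Glut1KO 4 and 5, so p-values measure only the spread between these libraries. Slc2a1, the gene of Glut1, measured 73.2 to 118 counts-per-million after TMM scaling (CPM) in Control, 60.3, 42.5 and 34.6 CPM in Glut1KO 1 to 3, and 92.4 and 103 CPM in Glut1KO 4 and 5. The libraries labelled Glut1KO 4 and 5 thus lay within the Control range for the targeted gene (log2 fold change −0.62, SE 0.29, adjusted p = 0.658, limma).

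Endothelial cells hold vessels closed through junction proteins such as VE-cadherin and grow in response to VEGF, angiopoietin and apelin ligands, for which they carry receptors. Transcription factors of the ETS and SOXF families set their identity. In the lung, a general capillary cell and a thin aerocyte share the alveolar capillary bed, large vessels differ from it by genes such as Vwf, and lymphatic vessels are specified by Prox1. Following these roles, 25 genes were treated as pan-endothelial (13 junction and surface genes, 7 receptor and vessel tone genes and 5 transcription factor genes), 5 as capillary, 3 as large-vessel and 4 as lymphatic. Defining markers of endothelium were present in each of the 10 libraries. Pecam1 was counted at least 1046 times and Cdh5 at least 1037 times in any library. Mmrn1 had the lowest count, 3 in Control 4.

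The question was whether tumours of the Glut1KO and Control groups differed in their vessel transcripts. By log2 fold change, 36 of 37 endothelial genes were higher in Glut1KO, with a median of 0.55, and Prox1 alone was lower. The median was 0.32 without Control 2, the lowest value over libraries left out one at a time. Across the 15922 genes tested 49.3% were higher, with a median of −0.00. None of the 37 passed an adjusted p of 0.05 in limma (0 of 37, against 0% of all genes), with 0.531 as the smallest value. Before adjustment, 4 of 37 lay under 0.05 in limma (10.8%, against 7.68% of all genes), which were Mmrn1, Flt1, Cldn5 and Fli1. DESeq2 also called 0 of 37, against 1.33% of all genes, and before adjustment it gave 5 of 37 a p under 0.05, against 10.8% of all genes. The edgeR quasi-likelihood test called 0 of 37, against 0% of all genes, and before adjustment it gave 3 of 37 a p under 0.05, against 8.85% of all genes. The groups overlapped for each of the 37 genes, whereas 1.84% of all genes tested had groups that did not overlap. As the genes move together across libraries (r with the other genes was under 0.90 for only 8 of 37), the count of 36 does not stand for 36 separate results. In a bulk library fewer vessel cells and less RNA per vessel cell cannot be told apart.

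The median difference was larger with the female Glut1KO libraries and near 0 among males. The mean log2 CPM of the 25 pan-endothelial genes was 3.50 ± 0.74 in Control and 4.04 ± 0.63 in Glut1KO (SD, n = 5 each), a 1.45-fold difference within the spread of either group. Control 2, at 2.50, lowered the Control mean, as the other controls ran from 3.16 to 4.46. Within Glut1KO the pan-endothelial mean was 4.37 in the 3 female libraries and 3.53 in the 2 male libraries, beside 3.50 in the male controls. This did not hold library by library, as Glut1KO 3 (female) was at 3.79 and Glut1KO 5 (male) at 3.86. With the male libraries alone, the median over the 37 genes was 0.08 and 22 genes were higher and 15 lower. As all controls were male, a fit with sex as a covariate takes its group difference from the same male libraries and is not a separate check. With the female Glut1KO libraries against the 5 controls the median was 0.89 and 35 genes were higher and 2 lower. Sex and the level of Slc2a1 split the Glut1KO libraries in the same way, as did the name number shared by Glut1KO 4 and 5. These cannot be told apart. The difference between the sexes was not tested, and neither comparison called one of the 37 genes at an adjusted p of 0.05 in limma (0.0548% of all genes with the female Glut1KO libraries, 0.00597% with males only). Before adjustment, limma gave 13 of 37 a p under 0.05 with the female Glut1KO libraries, against 13.8% of all genes, and 1 of 37 with males only, against 9.28% of all genes. With both sexes, the count of 4 of 37 from all 10 libraries moved when single libraries were left out, to 16 of 37 without Control 3 (6.76% of all genes) and 11 of 37 without Glut1KO 4 (7.49% of all genes), to 6 without Control 1 (7.22%), to 2 without Control 4 (5.69%) or Glut1KO 2 (6.4%), and to 1 without Control 2 (8.92%), Control 5 (7.33%) or Glut1KO 1 (7.28%).

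**Figure D1:**
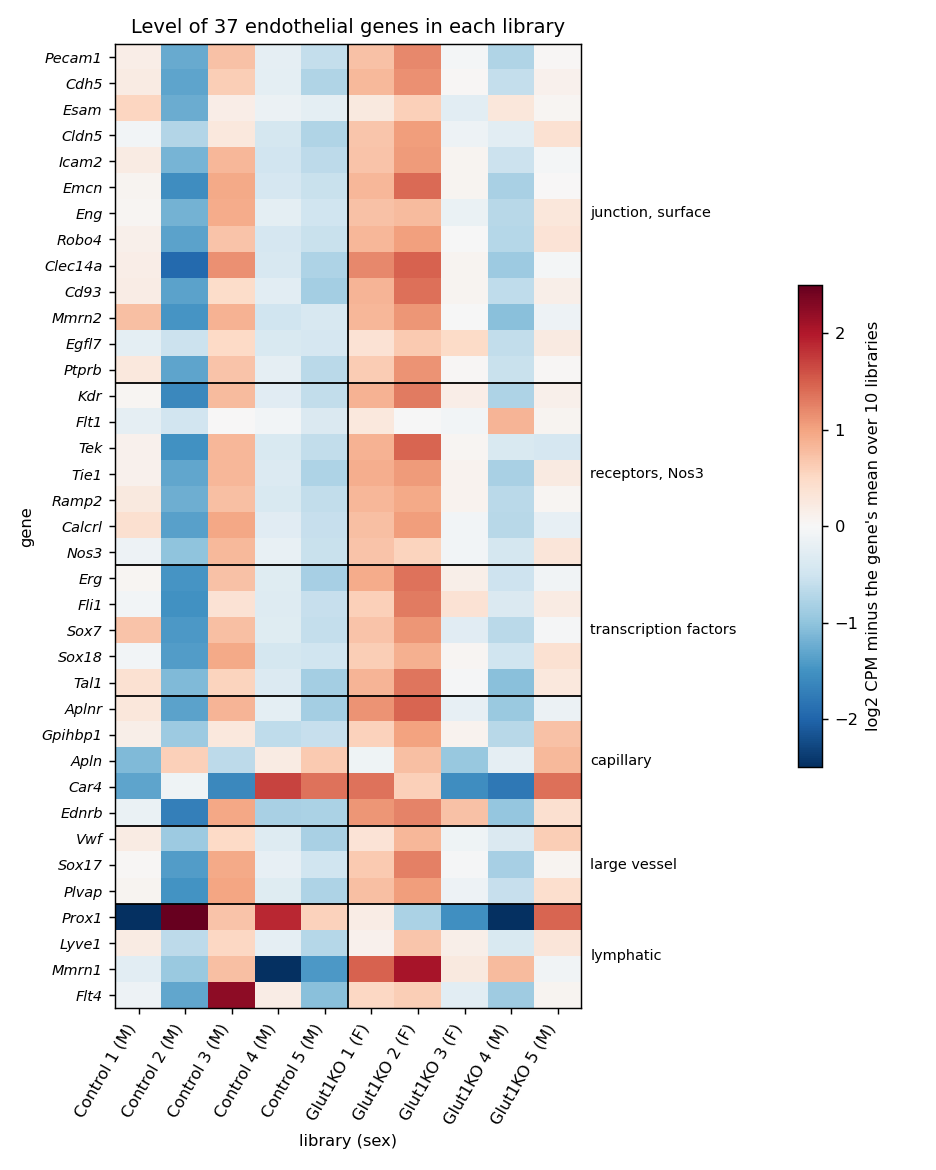
Level of each of the 37 genes in each library, as log2 CPM minus the gene's mean over the 10 libraries (red higher, blue lower, colour ends at 2.5 in either direction). Rows are ordered by role and columns by group with the sex in parentheses. Most rows share one pattern across columns, with Control 2 lowest and Glut1KO 2 highest, and the rows of Flt1, Apln, Car4 and Prox1 do not.

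Libraries differed widely within each group. The SD of the pan-endothelial mean was 0.74 in Control and 0.63 in Glut1KO, beside a difference of 0.54 between the group means (log2). Ordered by the pan-endothelial mean, Glut1KO 2 was first with 4.82, followed by Glut1KO 1 with 4.50, Control 3 with 4.46, Control 1 with 3.93, Glut1KO 5 with 3.86, Glut1KO 3 with 3.79, Control 4 with 3.45, Glut1KO 4 with 3.21, Control 5 with 3.16 and Control 2 with 2.50. The groups were interleaved, and the first library was 5.01-fold above the last. Of the 37 genes, 29 were highest in Glut1KO 2 and 30 were lowest in Control 2. Libraries that share a name number were not alike in this measure, as Control 1, 2 and 5 spanned 1.43 on the log2 scale, Control 3 and 4 spanned 1.01 and Glut1KO 4 and 5 spanned 0.64.

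Among the junction and surface genes, 13 of 13 had a higher mean in Glut1KO, with a median log2 fold change of 0.54 and a range from 0.38 (Esam) to 0.79 (Clec14a). Without Control 2 the range was from 0.01 (Mmrn2) to 0.61 (Cldn5). With males only or with sex as a covariate, 5 of the 13 turned to a lower value in Glut1KO (Pecam1, Icam2, Emcn, Clec14a and Mmrn2, from −0.33 for Mmrn2 to within 0.01 of 0 for Icam2). Pecam1, the adhesion molecule CD31, lies at chr11:106654217-106750628 (GRCm38). It measured 60.4, 22.5, 89.5, 45.8 and 35.8 CPM in Control 1 to 5 and 89.7, 124, 51.8, 32.1 and 55 CPM in Glut1KO 1 to 5. Only Glut1KO 1 and 2 exceeded the highest control, and the log2 fold change was 0.49 (SE 0.42, 95% interval −0.42 to 1.41, adjusted p = 0.796, limma). Cdh5, VE-cadherin of the adherens junction (chr8:104101625-104144511), measured 55.5, 19.4, 73.6, 40.8 and 28.5 CPM in Control and 84.4, 107, 49.1, 31.8 and 51.8 CPM in Glut1KO. Its order of libraries was nearly that of Pecam1, and its log2 fold change of 0.62 (SE 0.40, adjusted p = 0.746, limma) had an interval from −0.26 to 1.51. Pecam1 and Cdh5 were at 0.22 and 0.35 without Control 2, and at 0.25 and 0.41 without Glut1KO 2. Cdh5 was 0.09 with males only or with sex as a covariate. Cldn5, the claudin of endothelial tight junctions (chr16:18776847-18778262), measured 4.23, 2.69, 5.34, 3.28 and 2.65 CPM in Control and 7.16, 9.18, 4.09, 3.68 and 5.80 CPM in Glut1KO. Here 3 Glut1KO libraries lay above the highest control and 3 controls lay below the lowest Glut1KO library. The log2 fold change of Cldn5 was 0.71 (SE 0.31, p = 0.0421, adjusted p = 0.643, limma), and the exact permutation test over all assignments of libraries to groups gave p = 0.0635 (2-sided).

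The other junction and surface genes are given by their range over the 10 libraries. Emcn, the sialomucin endomucin, ran from 4.79 to 37.4 CPM over the libraries and Clec14a, a surface lectin, from 1.39 to 14.8 CPM, a 10.6-fold range. Cd93 ran from 17.6 to 116 CPM and Robo4, which stabilises vessels, from 4.79 to 24.4 CPM. Ptprb, the phosphatase that acts on Tie2 and VE-cadherin, ran from 16.8 to 91.8 CPM, Eng, a co-receptor for BMP9, from 12.0 to 52.3 CPM and Mmrn2, a matrix ligand of Cd93 and Clec14a, from 4.42 to 26.6 CPM. Icam2 ran from 1.93 to 9.06 CPM and Esam, an adhesion molecule also known from platelets, from 20.8 to 74.1 CPM. Egfl7, a secreted vessel factor, ran from 11.4 to 27.5 CPM, the smallest fold range of the 13 (2.41-fold). Exons of Eng, Egfl7, Ramp2, Nos3 and Prox1 overlap those of other genes in the GENCODE M21 annotation (Fpgs, Gm20532 with Mir126 and Agpat2, Vps25, Atg9b with Gm15587, and Gm17566), and their counts are uncertain. The partners of Eng, Nos3 and Prox1 and Agpat2 lie on the opposite strand, where the use of strand in counting, which is not given in the sources used here, would decide, while Vps25, Gm20532 and Mir126 lie on the same strand.

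All 7 receptor and vessel tone genes had a higher mean in Glut1KO (median log2 fold change 0.54, from 0.39 for Calcrl to 0.73 for Kdr), and Tek, Ramp2 and Calcrl turned to a lower value with males only or with sex as a covariate. Kdr, the main signalling receptor for VEGF-A, measured 32.1, 10.2, 53.8, 25.8 and 20.3 CPM in Control and 56.8, 77.3, 34.9, 18.2 and 34.1 CPM in Glut1KO. Its log2 fold change was 0.73 (SE 0.46, interval −0.29 to 1.75, adjusted p = 0.745, limma), and 2 Glut1KO libraries exceeded the highest control. The value of Kdr was 0.37 without Control 2 and 0.09 with males only or with sex as a covariate. Flt1, a VEGF receptor that mostly acts as a trap for the ligand, behaved differently. It measured 67.4, 56.4, 79.4, 74.4 and 61.0 CPM in Control and 93.9, 78.2, 75.0, 141 and 82.1 CPM in Glut1KO. Flt1 was highest in Glut1KO 4, a library in which Kdr was second lowest. The groups overlapped through Control 3 and Glut1KO 2 and 3, with a log2 fold change of 0.44 (SE 0.18, p = 0.0304, adjusted p = 0.612, limma, and p = 0.0317 in the exact permutation test, 2-sided). The log2 fold change of Flt1 was 0.29 without Glut1KO 4 (adjusted p = 0.662, limma), where its unadjusted p was no longer under 0.05. Unlike the median of the 37 genes it was larger with males only, at 0.68 (adjusted p = 0.480, limma), than with the female Glut1KO libraries only, at 0.29 (adjusted p = 0.397, limma).

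Tek, the angiopoietin receptor Tie2, measured 14.0, 4.60, 23.1, 10.1 and 8.49 CPM in Control and 24.0, 35.8, 13.6, 10 and 9.81 CPM in Glut1KO, with a log2 fold change of 0.70 (SE 0.48, adjusted p = 0.758, limma). Its partner Tie1 ran from 8.58 to 43.8 CPM. Calcrl and Ramp2, which together form a receptor for adrenomedullin, ran from 10.2 to 54.2 and from 2.77 to 12.5 CPM, and their log2 fold changes were 0.39 and 0.54. Nos3, the endothelial nitric oxide synthase, ran from 3.45 to 12.3 CPM with its highest value in Control 3.

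The 5 transcription factor genes had a median log2 fold change of 0.63, from 0.41 for Sox7 to 0.87 for Fli1, and Sox7 and Tal1 turned to a lower value with males only or with sex as a covariate. Without Control 2 the values ran from 0.05 for Sox7 to 0.58 for Fli1. Fli1 was 0.39 with males only or with sex as a covariate. Erg, an ETS factor that keeps endothelial identity, measured 6.28, 2.21, 10.2, 4.94 and 3.42 CPM in Control and 11.6, 15.6, 6.71, 4.29 and 5.75 CPM in Glut1KO. It was highest in Glut1KO 2 and Glut1KO 1 and lowest in Control 2, with a log2 fold change of 0.79 (SE 0.45, adjusted p = 0.723, limma). The value of Erg was 0.48 without Control 2 and 0.12 with males only or with sex as a covariate. Fli1, an ETS factor that blood cells also express, ran from 1.13 to 4.15 CPM in Control (median 2.59) and from 2.52 to 7.87 CPM in Glut1KO (median 4.11), with p = 0.0455 and adjusted p = 0.644 in limma and p = 0.0873 in the exact permutation test. Relative to the mean of the other pan-endothelial genes in the same library, Fli1 lay at −2.31 ± 0.17 in Control and −2.01 ± 0.19 in Glut1KO on the log2 scale, and Erg at −1.30 ± 0.13 and −1.10 ± 0.18 (SD, n = 5 each). For both, 4 of 5 Glut1KO libraries were above all controls, and this was chosen for mention after the values were seen. Sox18 ran from 1.84 to 9.31 CPM and Sox7 from 2.84 to 16.6 CPM, and Tal1, a factor shared with blood lineages, was the lowest of the group at 0.705 to 3.83 CPM.

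**Figure D2:**
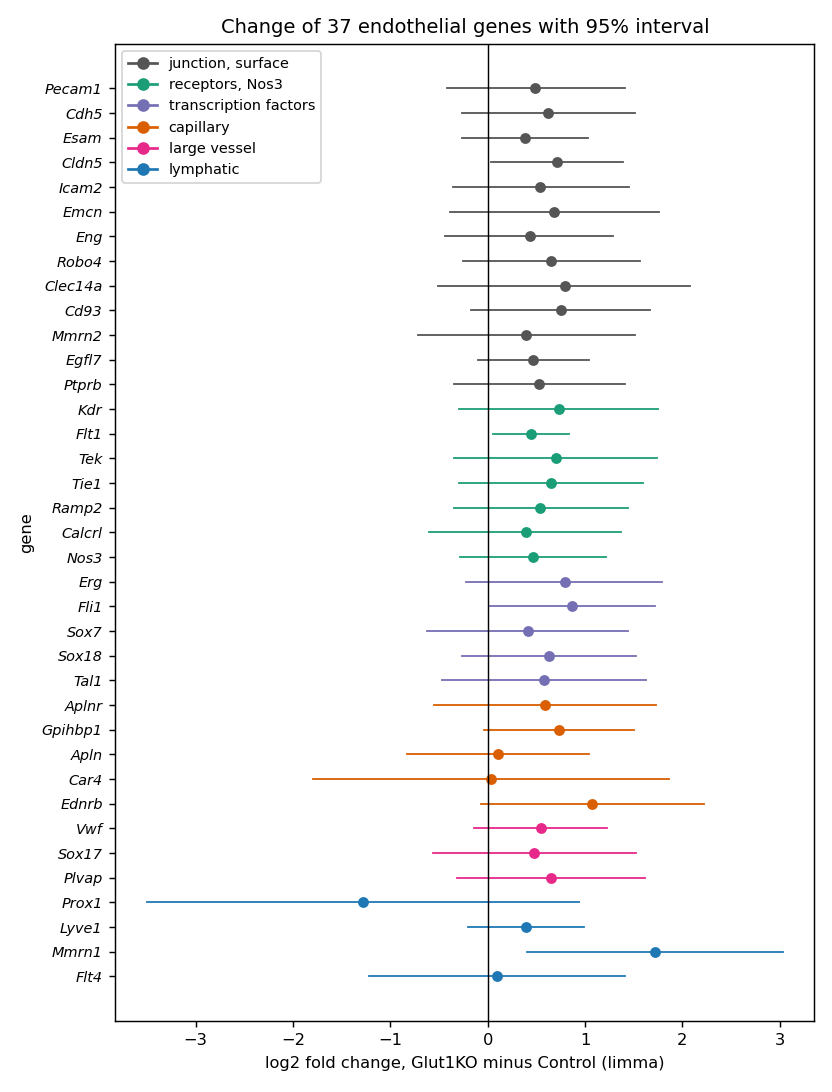
Log2 fold change (Glut1KO minus Control, limma) of the 37 genes, with points for the estimate, lines for its 95% interval and colours for the role. All points except that of Prox1 lie right of 0, and only the intervals of Cldn5, Flt1, Fli1 and Mmrn1 leave 0 out before adjustment.

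The capillary genes did not form a single pattern. Aplnr, the apelin receptor of general capillary cells, measured 25, 8.19, 37, 17.5 and 11.4 CPM in Control and 45, 56.3, 18, 10.9 and 18.7 CPM in Glut1KO. Gpihbp1, which carries lipoprotein lipase to the capillary lumen, measured 7.64, 3.66, 8.30, 4.45 and 4.61 CPM in Control and 10.3, 13.9, 7.28, 4.26 and 11.4 CPM in Glut1KO. Both genes were lowest in Control 2 and highest in Glut1KO 2, as most pan-endothelial genes were. Their log2 fold changes were 0.59 (SE 0.52, adjusted p = 0.805, limma) and 0.73 (SE 0.35, adjusted p = 0.668, limma), and 3 Glut1KO libraries had more Gpihbp1 than any control. With males only or with sex as a covariate Aplnr was −0.19.

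Of the genes that mark aerocytes in normal lung, Ednrb, an endothelin receptor, followed the common order and the other two did not. Ednrb measured 4.53, 1.56, 10, 2.90 and 2.94 CPM in Control and 10.9, 12.1, 8.42, 2.61 and 6.73 CPM in Glut1KO, with a log2 fold change of 1.07 (SE 0.52, interval −0.07 to 2.22, adjusted p = 0.676, limma). This value was 0.30 with sex as a covariate, 0.31 with males only and 1.56 with the female Glut1KO libraries only. Apln, the apelin ligand, measured 15.2, 49.7, 21, 38 and 52 CPM in Control and 30.4, 55.7, 17, 28.1 and 58 CPM in Glut1KO. It was thus high in Control 2 and 5, where pan-endothelial genes were lowest, and its log2 fold change was 0.11 (SE 0.42, interval −0.83 to 1.04, adjusted p = 0.967, limma). Car4, a carbonic anhydrase anchored in the membrane, measured 1.65, 3.82, 1.36, 13.4 and 10.6 CPM in Control and 10.6, 6.23, 1.41, 1.2 and 10.7 CPM in Glut1KO. Each group held libraries under 2 CPM and libraries above 10 CPM, and the log2 fold change of Car4 was 0.03 (SE 0.83, interval −1.79 to 1.86, adjusted p = 0.994, limma). The interval for Car4 is wide enough to hold a more than 3-fold difference either way. As a class, the 5 capillary genes had a median log2 fold change of 0.59, which was 0.28 without Control 2, 0.30 without Glut1KO 2, 0.38 without Glut1KO 1, 0.30 with sex as a covariate and 0.91 with the female Glut1KO libraries only.

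The 3 large-vessel genes varied together. Vwf, the clotting factor stored in endothelial granules and in platelets, measured 71.7, 33.3, 88.1, 49.6 and 35.6 CPM in Control and 79.1, 111, 57.6, 48.6 and 95.9 CPM in Glut1KO, with a log2 fold change of 0.55 (SE 0.31, adjusted p = 0.721, limma). Sox17, a SOXF factor of arteries, measured 2.30, 0.854, 4.35, 1.96 and 1.59 CPM in Control and 3.53, 5.35, 2.20, 1.26 and 2.36 CPM in Glut1KO, with 0.48 (SE 0.47, adjusted p = 0.827, limma). Plvap, the diaphragm protein of fenestrae and caveolae, measured 32.6, 11, 61.8, 25.2 and 18.3 CPM in Control and 52.4, 64.3, 28.4, 21 and 41.7 CPM in Glut1KO, with 0.65 (SE 0.44, adjusted p = 0.756, limma). Whether Plvap marks large vessels rather than capillaries in these tumours was not tested. Sox17 was −0.10 with males only and −0.11 with sex as a covariate, and Plvap was 0.30 with either. Without Control 2, Vwf was 0.38, Sox17 0.17 and Plvap 0.32. For each of the 3 genes Control 3 lay among the 3 highest libraries and Glut1KO 4 among the 3 lowest, so the groups overlapped widely. Vwf differed from the other 2 in Glut1KO 5, where it was second highest.

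The 4 lymphatic genes went separate ways. Lyve1, a hyaluronan receptor that some macrophages also carry, measured 13.7, 7.52, 17.0, 10.2 and 7.23 CPM in Control and 12.9, 19.2, 13.2, 9.20 and 14.7 CPM in Glut1KO, with a log2 fold change of 0.39 (SE 0.27, adjusted p = 0.758, limma). Flt4, the VEGF-C receptor, measured 6.76, 3.03, 35, 8.37 and 3.59 CPM in Control and 10.6, 11.3, 6.18, 3.99 and 7.81 CPM in Glut1KO. Control 3 held over 3 times the Flt4 of any other library, the log2 fold change was 0.10 (SE 0.60, adjusted p = 0.981, limma), and Flt4 was lower in Glut1KO by edgeR and DESeq2 (−0.50 in both) and with males only or sex as a covariate (−0.30 in both). Prox1, the master regulator of lymphatic identity, measured 0.304, 11.9, 3.09, 6.97 and 2.80 CPM in Control and 2.14, 1.09, 0.651, 0.337 and 5.21 CPM in Glut1KO. It was highest in Control 2, where most other genes were lowest, spanned 39.3-fold and had a log2 fold change of −1.28 (SE 1.01, interval −3.50 to 0.94, adjusted p = 0.784, limma). Single libraries moved this value, to −2.08 without Control 1 (unadjusted p under 0.05, adjusted p = 0.558, limma), −0.72 without Control 2 and −0.86 without Glut1KO 4. Mmrn1, a multimerin that platelets also hold, measured 0.380, 0.241, 0.766, 0.0763 and 0.169 CPM in Control and 1.27, 1.90, 0.539, 0.797 and 0.430 CPM in Glut1KO. With counts of 3 to 80 a library it had the smallest p of the 37 genes (log2 fold change 1.72, SE 0.60, p = 0.015, adjusted p = 0.531, limma, and p = 0.0317 in the exact permutation test, 2-sided), and 3 Glut1KO libraries exceeded all controls.

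**Figure D3:**
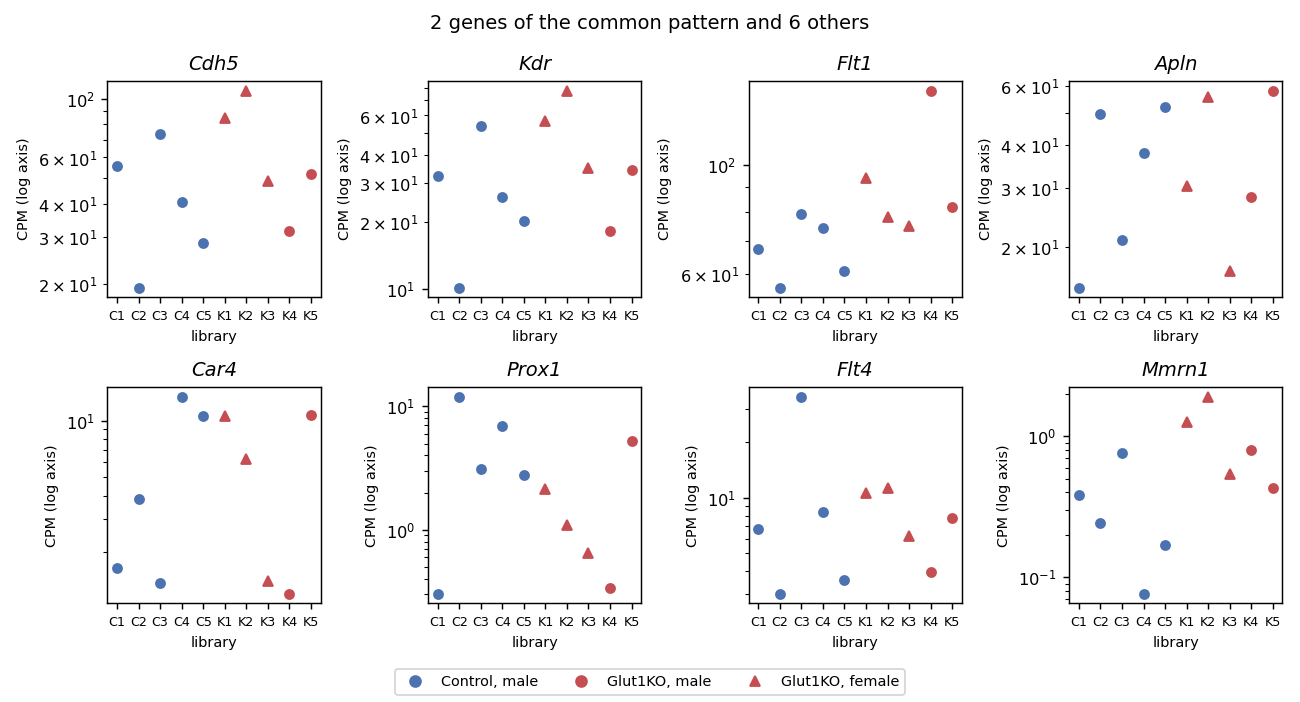
CPM on log axes of 8 genes in each library, C1 to C5 for Control and K1 to K5 for Glut1KO, with circles for males and triangles for females. Cdh5 and Kdr show the common order of libraries, whereas Flt1 peaks at 141 CPM in Glut1KO 4, Flt4 at 35 CPM in Control 3, and Apln, Car4, Prox1 and Mmrn1 each order the libraries in another way.

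Among the vessel beds the levels set per library against the pan-endothelial mean were compared as a description. The large-vessel genes lay at 0.27 ± 0.08 in Control and 0.26 ± 0.17 in Glut1KO, and the capillary genes at −0.41 ± 0.64 and −0.48 ± 0.38 (log2, SD, n = 5 each). The lymphatic genes lay at −2.02 ± 0.75 and −2.35 ± 0.30. For each bed the groups overlapped and the difference between group means was smaller than the SD of the controls. The spread of the capillary value came from Apln and Car4, since the general capillary genes Aplnr and Gpihbp1 lay at −0.22 ± 0.13 in Control and −0.16 ± 0.19 in Glut1KO, whereas the aerocyte genes Apln, Car4 and Ednrb lay at −0.54 ± 1.06 and −0.70 ± 0.54.

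**Figure D4:**
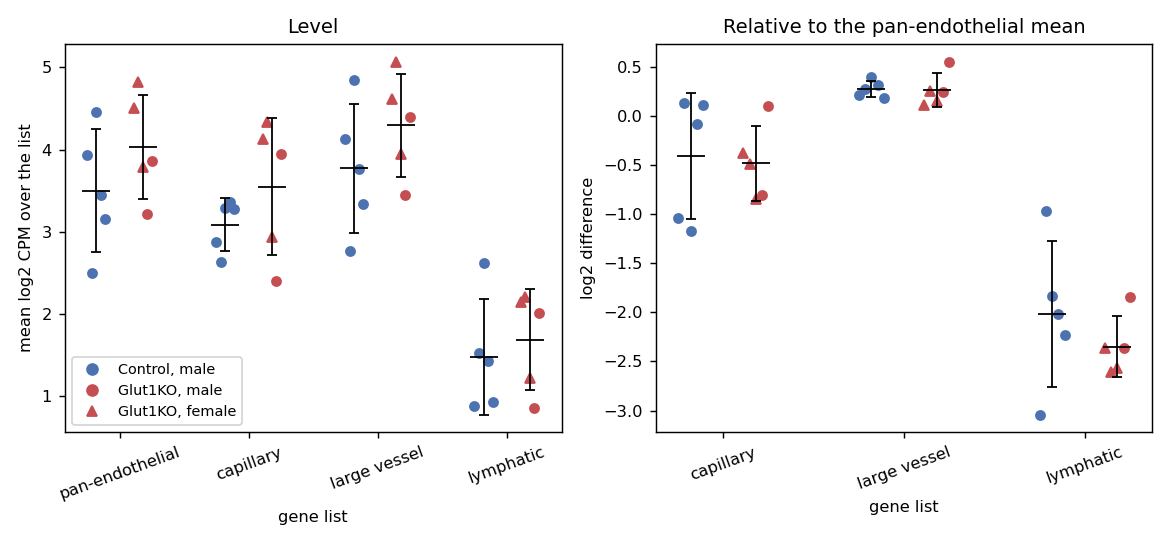
Left, mean log2 CPM of the pan-endothelial, capillary, large-vessel and lymphatic genes in each library. Right, the bed values minus the pan-endothelial mean of the same library, with bars for mean ± SD (n = 5). Groups overlap in every column, and relative to the pan-endothelial mean the large-vessel genes are tight (0.27 ± 0.08 in Control) and the capillary and lymphatic genes scatter.

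Levels between genes were compared per kilobase of exon. Esam and Plvap were highest at 18 CPM per kb over the 10 libraries, followed by Cdh5 with 12.9, Apln with 11.6 and Pecam1 with 9.74. The lowest were Sox17 with 0.540, Prox1 with 0.412, Tal1 with 0.400 and Mmrn1 with 0.112 CPM per kb. Each gene spanned at least 2.41-fold between libraries, more than the ratio between any neighbours in this order other than Tal1 and Mmrn1.

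The shared pattern was measured as Pearson r of each gene's log2 CPM with the mean of the other pan-endothelial genes over the 10 libraries, as a description, since all points share library, depth and tissue makeup. It was 0.90 or more for 29 of 37 genes and under 0.50 for 4. Cdh5 had r = 1.00, and over the libraries its log2 CPM had an SD of 0.75, which fell to 0.08 relative to the other pan-endothelial genes. The median SD of the 25 genes was 0.75 before and 0.19 after this step. The median r over 300 pairs of pan-endothelial genes was 0.95, and 0.91 without Control 2 and Glut1KO 2, whereas over all pairs of the genes tested it was −0.00. Within Control it was 0.97 and within Glut1KO 0.96. Among the large-vessel genes the median was also 0.95, but it was 0.11 among the capillary genes and 0.22 among the lymphatic genes. The genes with the least likeness were Prox1 (r = −0.30), Apln (−0.20), Car4 (0.02), Flt1 (0.21), Mmrn1 (0.70), Esam (0.77), Flt4 (0.81) and Egfl7 (0.86).

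Promoter windows of RefSeq (GRCm38.p6) were matched by symbol for 19 of 37 genes, with exactly 1 window for 15. The 3 of these with the highest r were Emcn (chr3:137340828-137341066, plus strand), Clec14a (chr12:58269291-58269508, minus strand) and Kdr (chr5:75978459-75978705, minus strand). Up to 250 bases before the gene start are shown 5′ to 3′ on the strand of the gene, to set genes that move together beside genes that do not. Capitals mark GGAAG or CAGGAA on either strand (reverse complements CTTCC and TTCCTG), letters that contain the GGAA core bound by ETS factors such as Erg and Fli1 and that can overlap in CAGGAAG.

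Emcn: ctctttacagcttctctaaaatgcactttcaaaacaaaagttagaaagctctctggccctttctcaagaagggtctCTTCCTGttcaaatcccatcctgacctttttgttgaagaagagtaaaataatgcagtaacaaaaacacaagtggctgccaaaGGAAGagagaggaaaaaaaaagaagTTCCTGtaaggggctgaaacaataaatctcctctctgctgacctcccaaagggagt
Clec14a: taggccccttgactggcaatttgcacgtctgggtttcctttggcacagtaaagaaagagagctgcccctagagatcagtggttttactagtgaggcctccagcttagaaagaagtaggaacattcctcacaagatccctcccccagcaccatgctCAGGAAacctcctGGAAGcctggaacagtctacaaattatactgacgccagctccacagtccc
Kdr: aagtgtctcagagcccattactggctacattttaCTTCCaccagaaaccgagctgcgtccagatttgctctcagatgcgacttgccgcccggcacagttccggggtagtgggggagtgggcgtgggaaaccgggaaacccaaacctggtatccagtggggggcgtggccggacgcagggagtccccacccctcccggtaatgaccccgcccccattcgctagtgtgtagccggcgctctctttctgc

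The 3 with the lowest r were Flt1 (chr5:147726012-147726261, minus strand), Apln (chrX:48034854-48035103, minus strand) and Car4 (chr11:84957504-84957753, plus strand).

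Flt1: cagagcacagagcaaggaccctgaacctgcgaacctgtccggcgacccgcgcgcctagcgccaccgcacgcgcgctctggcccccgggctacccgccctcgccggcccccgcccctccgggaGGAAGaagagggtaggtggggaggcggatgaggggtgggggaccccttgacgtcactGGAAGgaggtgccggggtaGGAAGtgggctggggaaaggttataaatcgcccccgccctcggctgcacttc
Apln: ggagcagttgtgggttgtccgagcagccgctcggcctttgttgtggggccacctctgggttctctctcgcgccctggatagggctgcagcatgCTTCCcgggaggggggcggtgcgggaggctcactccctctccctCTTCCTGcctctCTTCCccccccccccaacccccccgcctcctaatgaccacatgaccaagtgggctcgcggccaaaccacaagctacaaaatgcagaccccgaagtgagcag
Car4: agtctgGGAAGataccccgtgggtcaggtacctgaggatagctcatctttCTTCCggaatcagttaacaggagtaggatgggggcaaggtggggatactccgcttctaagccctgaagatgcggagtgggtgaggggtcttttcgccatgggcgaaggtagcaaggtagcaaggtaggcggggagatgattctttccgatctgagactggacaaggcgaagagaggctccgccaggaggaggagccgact

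GGAAG on either strand was present in each of these 6 runs, and CAGGAA in those of Emcn, Clec14a and Apln. Over the 15 genes with 1 window, 13 (86.7%) held GGAAG in the 250 bases, and 64.1% of 32851 windows of all genes did. CAGGAA was held by 8 of 15 (53.3%) and by 25.7% of all windows. The motifs were chosen with the values known, a match is not a binding site, and the runs do not separate the genes that followed the common pattern from those that did not.

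Further genes of the pathway were taken from lists of ligands and vessel states. Of 10 measured ligands of endothelial receptors, 5 were higher and 5 lower (median log2 fold change −0.23), and limma called 0 with 3 of 10 under an unadjusted p of 0.05 (7.68% of all genes). Edn1, endothelin 1, was the only ligand of the 10 called by DESeq2 (1.33% of all genes). It measured 35.9, 32.8, 12.4, 23.2 and 18.3 CPM in Control and 11.4, 8.20, 6.18, 6.23 and 15.5 CPM in Glut1KO, overlapping through Control 3 and Glut1KO 5 (log2 fold change −1.35, SE 0.36, adjusted p = 0.404, limma). Vegfd was at 2.84 ± 0.734 CPM in Control and 1.69 ± 0.382 CPM in Glut1KO (log2 fold change −0.75, adjusted p = 0.559, limma). Of 10 Notch and BMP pathway genes, 7 were higher and 3 lower, with the smallest p for Jag1, a Notch ligand (−0.45, adjusted p = 0.449, limma), and Bmpr2, a BMP receptor (0.32, adjusted p = 0.587, limma), and both tools called 0.

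Genes of angiogenic sprouts, 10 in number, had a median of 0.75 on the log2 scale. Of these 9 were higher and 1 was lower, 7 were under an unadjusted p of 0.05 (7.68% of all genes), and limma called 0. Angpt2 and Pgf stand in the ligand list too, and Dll4 in the Notch list. DESeq2 called 3 of 10 (1.33% of all genes), which were Cxcr4, Col4a1 and Col4a2. Cxcr4, a chemokine receptor of tip cells and leukocytes, measured 4.12 to 6.83 CPM in Control and 7.79 to 22.5 CPM in Glut1KO (log2 fold change 1.25, SE 0.29, adjusted p = 0.351, limma). Col4a1, a basement membrane collagen made by many cell types, measured 954 to 1052 CPM and 1195 to 1735 CPM (0.52, SE 0.12, adjusted p = 0.351, limma). Col4a2, the chain that pairs with Col4a1, measured 497 to 588 CPM and 605 to 812 CPM (0.42, SE 0.12, adjusted p = 0.419, limma). The groups did not overlap for these 3 of the 10 genes (1.84% of all genes) and overlapped for the other 7, and r of Cxcr4 and Col4a1 with the pan-endothelial mean was 0.58 and 0.56. For Col4a2 it was 0.67, and over the 10 genes it ran from 0.15 for Pgf to 0.94 for Trp53i11.

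Bed lists beyond the 37 genes showed no call by limma or DESeq2, and the 2 genes named for each are those with the smallest p, whichever their direction. Arterial genes were higher in 7 of 10 (median 0.25), with values for Bmx (1.12, adjusted p = 0.641, limma) and Mecom (0.74, adjusted p = 0.677, limma), and venous genes in 5 of 8 (median 0.19), with values for Lepr (0.70, adjusted p = 0.784, limma) and Vcam1 (−0.67, adjusted p = 0.787, limma). Further general capillary genes were higher in 7 of 9 tested (median 0.48), with values for Scn7a (1.13, adjusted p = 0.644, limma) and Kit (0.87, adjusted p = 0.677, limma). Further aerocyte genes were higher in 6 of 8 tested (median 0.07), with values for Cyp4b1 (−1.52, adjusted p = 0.593, limma) and Clec1a (1.00, adjusted p = 0.735, limma). Lymphatic genes were higher in 4 of 8 tested (median 0.07), with values for Pard6g (0.78, adjusted p = 0.707, limma) and Sned1 (−0.56, adjusted p = 0.800, limma), and Ccl21a was at 0 counts in all libraries. Several of these genes did not follow the endothelial genes across libraries, as r with the pan-endothelial mean was −0.68 for Vcam1, −0.03 for Cyp4b1, 0.13 for Bmx and 0.29 for Sned1, against 0.96 for Scn7a, 0.94 for Kit and 0.94 for Clec1a. The further general capillary genes were divided. Their r was negative for Sema3c (−0.78), Tspan7 (−0.47), Cd36 (−0.35) and Adgre5 (−0.19). For the other genes tested it ran from 0.37 for Lpl to 0.97 for Cxcl12.

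Markers of other cells moved in part with the groups. Leukocyte genes, the target of the bead depletion, were higher in 12 of 14 tested (median 0.74), and DESeq2 called 6 of 14 (1.33% of all genes) and limma 0. Their summed level was 319 to 468 CPM in Control and 343 to 594 CPM in Glut1KO, but most of it was Lcp1 (325 and 407 CPM on average, log2 fold change 0.31). The 6 genes, Ptprc, Fcer1g, Itgb2, Coro1a, Tyrobp and Laptm5, lay near or below 10 CPM, and their groups did not overlap (1.84% of all genes). Ptprc, the gene of CD45, lay at 2.30 to 3.26 CPM and 5.05 to 10.1 CPM (log2 fold change 1.47, SE 0.25, adjusted p = 0.23, limma), followed by Fcer1g (1.61, adjusted p = 0.259, limma). Over the other 4 the log2 fold changes ran from 0.95 for Laptm5 to 1.26 for Itgb2. The r with the pan-endothelial mean over the 10 libraries ran from 0.48 for Ptprc to 0.71 for Itgb2 among the 6, and over the 14 leukocyte genes its lowest value was −0.04 for Cd79a. Pericyte and smooth muscle genes were higher in 8 of 12 (median 0.24, summed level 62.8 to 118 CPM and 71.7 to 167 CPM), with values for Notch3 (0.66, adjusted p = 0.458, limma) and Cox4i2 (0.70, adjusted p = 0.658, limma), and fibroblast genes in 1 of 9 tested (median −0.21, 995 to 3259 CPM and 791 to 2603 CPM), with values for Fn1 (−0.39, adjusted p = 0.849, limma) and Dcn (−0.34, adjusted p = 0.854, limma). Epithelial genes were higher in 6 of 10 (median 0.13), with a summed level of 23427 to 60270 CPM in Control and 41811 to 57604 CPM in Glut1KO, most of it Sftpc and Sftpb. In Control 2 the surfactant gene Sftpc was the lowest of the 10 libraries at 6329 CPM, whereas Epcam, a general epithelial marker, was the highest at 619 CPM. Krt8 (695 CPM) and Krt18 (846 CPM) were in Control 2 the lowest of the controls. The r of Epcam with the pan-endothelial mean was −0.82, the lowest of the 10 epithelial genes. It was −0.37 to −0.15 for Krt19, Krt18, Krt8 and Cdh1 and reached 0.71 for Sftpc. The smallest p values of the list were those of Nkx2-1 (0.35, adjusted p = 0.667, limma) and Sftpb (0.36, adjusted p = 0.751, limma). Alveolar type 1 genes were higher in 5 of 10 (median 0.03, 1283 to 2199 CPM and 1405 to 2788 CPM), with values for Akap5 (0.51, adjusted p = 0.748, limma) and Ager (0.46, adjusted p = 0.784, limma).

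Platelet genes, of which 3 of 11 could be tested, were higher in 1 (median −0.29, 12.9 to 80.4 CPM and 15.4 to 128 CPM), Pf4 at 0.70 (adjusted p = 0.843, limma) and Itga2b at −0.29 (adjusted p = 0.846, limma), while Gp9 was at 0 counts in all libraries. Erythroid genes were higher in 1 of 5 tested (median −0.55, 237 to 1462 CPM and 189 to 751 CPM), Hbb-bs at −0.60 (adjusted p = 0.780, limma) and Hba-a2 at −0.68 (adjusted p = 0.784, limma). The part of leukocytes, platelets, other cells and dissection in the endothelial values was not tested.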

How the data were processed

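Polyadenylated RNA of CD45-depleted tumour cells was measured in 10 libraries (stranded mRNA kit). Per the labels and the submitters' processing notes, the authors used bcl2fastq 2.17, cutadapt 1.4.2, HISAT2 on mm10, featureCounts 1.4.4 and edgeR. The paper names a different version of cutadapt, and limma for differential expression. The annotation release and strand setting are not given in the sources used here. The deposited values are raw counts per Ensembl gene, 1 library per file, and 20 further columns of per-sample values were not used. Symbols came from the deposited combined table. Positions and exon lengths came from GENCODE M21.

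Genes were kept by filterByExpr (minimum count 10, minimum total 15), scaled by TMM (edgeR 4.0.16) and fitted by group with voom and limma 3.58.1 (R 4.3.3), with Benjamini-Hochberg adjustment over 15922 genes and a threshold of 0.05. CPM are TMM-scaled and log2 CPM used a prior count of 0.5. All 37 genes passed. DESeq2 1.42.0, edgeR quasi-likelihood, other scalings, no filter, sex, blocks and omitted libraries were alternatives. The fits were tested on simulated data, and no 2 libraries were duplicates. The endothelial genes given with a value for every library, or with ranges in the case of Fli1, were the capillary, large-vessel and lymphatic genes, Pecam1, Cdh5, Kdr, Tek, Erg, Cldn5, the 3 with the smallest limma p and any with the opposite sign. In other lists the 2 genes with the smallest p and Ptprc were named, with library values, ranges or fold changes. Others were named after their values were seen (Col4a2, Epcam, Sftpc and further leukocyte, epithelial and general capillary genes). The endothelial genes and lists were chosen with earlier results of these data known.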

Additional observations from a re-analysis of the deposited data

Results flagged for a closer look

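Of 88 groups of 5 values checked for a library far from the others of its group, 3 passed the limit of 0.71 for the gap over the range. Chance gives about 1 in 20, so 3 of 88 is no more than chance would give. Flt4 measured 35 CPM in Control 3, whereas the other controls ran from 3.03 to 8.37 CPM. Egfl7 measured 24.7 CPM in the same library, with the other controls at 12.1 to 14.9 CPM. Flt1 measured 141 CPM in Glut1KO 4, with the other Glut1KO libraries at 75.0 to 93.9 CPM.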

How the results depend on the processing

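The count of endothelial genes past the threshold was 0 under each of 20 alternatives, including the replicate block. Their median log2 fold change stayed above 0, from 0.08 with sex as a covariate or males only to 0.89 with the female Glut1KO libraries only, and over libraries left out one at a time from 0.32 (without Control 2) to 0.79 (without Control 3). The number of the 37 genes with an unadjusted p under 0.05 in limma, 4 with all libraries (7.68% of all genes), was 16 without Control 3 (6.76%), 11 without Glut1KO 4 (7.49%), 6 without Control 1 (7.22%), 2 without Control 4 (5.69%) or Glut1KO 2 (6.4%), and 1 without Control 2 (8.92%), Control 5 (7.33%) or Glut1KO 1 (7.28%). The capillary median moved from 0.59 to 0.91 with the female Glut1KO libraries only and was 0.28 without Control 2, 0.30 without Glut1KO 2 and 0.38 without Glut1KO 1. The lymphatic median ran from −0.09 (edgeR and DESeq2) to 0.60 (without Control 3). The large-vessel median ran from 0.30 (sex as a covariate or males only) to 0.87 (female Glut1KO libraries only). With the replicate block the medians were 0.53 over all 37 genes, 0.61 for capillary, 0.54 for large-vessel and 0.04 for lymphatic genes. Deviations of same-numbered libraries correlated at 0.042, −0.088, 0.029, 0.197 and −0.132, and 1 of 5 controls matched its own number best. No pairing by number was seen in these values, but with 5 libraries a group a weak one could be missed.

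As all controls were male, the fits with sex as a covariate and with males only rest on the same comparison and are not separate checks. Of 740 values of single genes under alternatives, with both of these fits counted, 47 in 15 genes had the opposite sign, and the cause was not tested. With sex as a covariate these were Pecam1 −0.09, Icam2 −0.01, Emcn −0.01, Clec14a −0.04, Mmrn2 −0.33, Tek −0.04, Ramp2 −0.00, Calcrl −0.22, Sox7 −0.10, Tal1 −0.06, Aplnr −0.19, Car4 −0.10, Sox17 −0.11 and Flt4 −0.30. With males only they were Pecam1 −0.09, Icam2 −0.00, Emcn −0.01, Clec14a −0.04, Mmrn2 −0.33, Tek −0.04, Ramp2 −0.00, Calcrl −0.21, Sox7 −0.10, Tal1 −0.05, Aplnr −0.19, Car4 −0.09, Sox17 −0.10 and Flt4 −0.30. Car4 was −0.03 and Flt4 −0.50 by edgeR and DESeq2, Apln was −0.06 with female Glut1KO libraries only and Flt4 was −0.28 with the replicate block. With single libraries left out, Apln ran from −0.15 to 0.37, Car4 from −0.35 to 0.46 and Flt4 from −0.27 to 0.64. Depth limits Mmrn1 most, with counts of 3 to 80.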
